A study of Mus musculus with 319 samples.

Results

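Of 301 single sorted thymic tuft cells, 50.8% (exact 95% Clopper-Pearson interval 45.03 to 56.6%) held at least 5 sequencing reads of Il25, the cytokine gene whose reporter was used to sort every cell. These cells, called Il25-positive here, were chosen by their Il25 reads alone and numbered 16, 33, 44 and 60 in the 4 sets of wells that the study collected. The first 3 sets were wild-type and the last, with 96 of the 301 cells, was Aire-/-. Shares of single sets ran from 37.9% to 62.5%, a spread that the pooled interval leaves out. Il25-positive cells were compared with 11, 44, 43 and 31 cells of the same sets that held 0 Il25 reads, called Il25-zero. The other 19 cells held 1 to 4 reads and entered neither class. Il25-positive cells carried higher summed levels of tuft cell genes in each of the 4 sets, together with less Malat1 and a lower mitochondrial share. Il25 was left out of the test across sets, and no other gene passed it (edgeR, smallest adjusted p = 0.991).

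Tuft cells are rare epithelial cells that sense their surroundings through a taste-like cascade, in which G protein-coupled receptors act through phospholipase C and the cation channel Trpm5. They make the cytokine IL-25, encoded by Il25, as well as leukotrienes, prostaglandins and acetylcholine. IL-25 belongs to the IL-17 family, signals through a receptor made of Il17rb and Il17ra, and is known in the gut for its action on type 2 innate lymphoid cells. In the thymus, tuft cells are part of the medullary epithelium.

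Each sample was 1 well of a plate, and its library was made by Smart-seq2, which copies whole transcripts and adds no molecular identifiers. ERCC spike-in RNA was in every well. All mice were naive, of a C57BL/6 background, carried Flare25, a fluorescent reporter of Il25, on both alleles (Flare25/Flare25), and were labelled as mixed in sex. Thymi were pooled, and the sorted cells were Flare25+ and EPCAM+, lacked CD45, CD11c and the UVBlue stain, and were low for surface MHC class II. Wild-type cells came in 3 sets named June5, June29 and WT batch 2, and cells of the genotype Flare25/Flare25 Aire-/-, which lack the tissue antigen regulator Aire, formed 1 set. The wild-type strain is named C57BL/6.Il25 and the other C57BL/6.Il25.Aire. The mice were 6 weeks old, except that 1 Aire-/- well was labelled 5 weeks. No animal is named for any well, so a set is 1 pool without a replicate.

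Of 314 wells sorted with 1 cell, 301 were kept, and their gene reads ran from 45266 to 2927690. A well labelled as 50 wild-type cells held 19 Il25 reads (26.4 CPM, the reads for every 1000000 gene reads), and a well labelled as 50 Aire-/- cells held 29 (53.7 CPM). The series text gives another number of cells for such wells, and their labels name the count table of the other genotype, so both the number and the genotype are in doubt. A well that received no cell held 0 Il25 reads of 9892, which allows up to 303 CPM, so its depth sets no useful limit. No pair of wells held identical counts.

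The share of cells with 5 or more Il25 reads was 55.2% in June5 (16 of 29 cells, interval 35.7 to 73.6%), 37.9% in June29 (33 of 87, 27.7 to 48.97%), 49.4% in WT batch 2 (44 of 89, 38.7 to 60.3%) and 62.5% in Aire-/- (60 of 96, 52.03 to 72.2%). June29 was the lowest and Aire-/- the highest, and the intervals of June5 and WT batch 2 overlapped with those of both. Intervals here cover counting error only, as several reads can come from 1 molecule, and with 1 pool a set the shares were not tested. WT batch 2 and Aire-/- shared the batch numbers 1 and 2 of a deposited table of labels, which does not say what these batches are. Wells with these numbers gave 54.2% and 43.9% in WT batch 2, and 66.7% and 58.3% in Aire-/-. Wells of 1 set with different batch numbers thus differed by about as much as some sets did.

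Among Il25-positive cells the median Il25 level in June5 was 78.9 CPM, with cells from 8.71 to 406 CPM. It was 80.7 CPM for June29 (13.2 to 476), 95.01 CPM for WT batch 2 (4.65 to 920) and 105.3 CPM for Aire-/- (8.29 to 1468). The middle of the distribution spanned a 2.77-fold to 4.28-fold range between quartiles, and all 4 ranges overlapped. The median number of Il25 reads was 72.5, 98, 56 and 62.5 in the same order, and 51 of the cells held 100 reads or more. In Aire-/-, 1 cell carried 1116 reads, which was 16.05% of the Il25 reads of its set. At the threshold, 9 cells with 5 to 9 reads had a median of 10.2 CPM (4.65 to 17.7), and the 19 cells with 1 to 4 reads had a median of 2.48 CPM (0.408 to 66.3). In the Il25-zero cells, a count of 0 allowed a median of up to 6.16, 2.68, 5.78 and 4.77 CPM in June5, June29, WT batch 2 and Aire-/-.

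**Figure D1:**
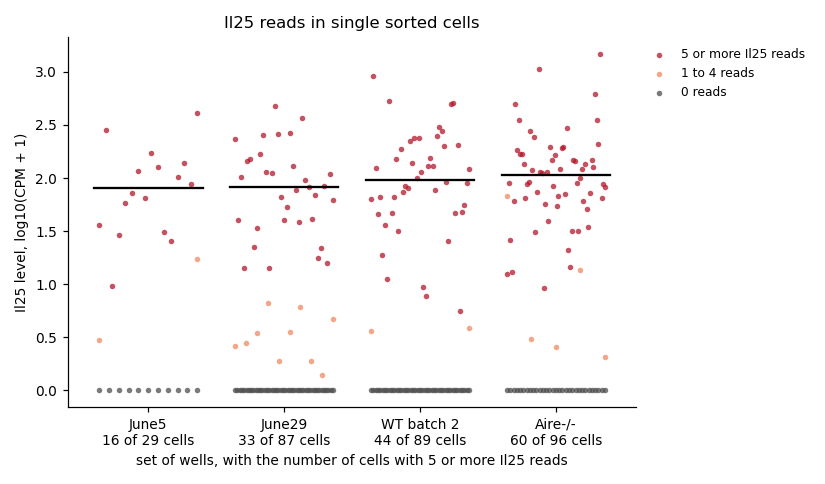
Il25 level of each of the 301 cells as log10(CPM + 1), by set, with the class of the cell in colour and the median of the cells with 5 or more reads as a line. The medians of the 4 sets, 78.9 to 105.3 CPM, lie close together, and cells with 0 reads are at the bottom of every set.

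The tuft identity of the Il25-positive cells was checked with a list of 30 tuft genes. All Il25-positive cells (100%) had at least 2 of these genes at 5 or more reads, as did all Il25-zero cells (100%). The median Il25-positive cell held 26, 25, 25 and 26 of the 30 genes at that level in June5, June29, WT batch 2 and Aire-/-. Trpm5, the channel of the cascade, was found in 100% of the Il25-positive cells, Pou2f3, the transcription factor that tuft cells need, in 83.7%, and Dclk1, a kinase used as a tuft marker, in 79.7%. The median Il25-zero cell held 25, 25, 24 and 25 of the genes in the same order. Every cell met the rule of 2 genes, so the rule does not separate the classes. The Il25-positive cell with the fewest held 14 of the 30 genes, in June29, and the Il25-zero cells with the fewest held 4, in Aire-/-, and 5, in WT batch 2.

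Lists of other cell types were checked by the same rule, 2 or more genes at 5 or more reads, and the share of cells that met it ran from 0% to 79.7% of the Il25-positive cells. Thymocyte genes (2 or more of 10) met it in 2 Il25-positive and 5 Il25-zero cells, and genes of dendritic cells or macrophages in 6 and 4. Fibroblast genes met this rule in 0 cells of either class. Among lists of other thymic epithelium, mTEC low genes met it in 40 Il25-positive and 36 Il25-zero cells (26.1% and 27.9%), cTEC genes in 34 and 24 (22.2% and 18.6%), ciliated cell genes in 26 and 20 (16.99% and 15.5%), genes of Aire-expressing cells in 16 and 17, and neuroendocrine genes in 10 and 1. The B cell list met it in 31 and 24 cells (20.3% and 18.6%), led by Cd79b in 91 and 53 cells and by Ebf1 in 35 and 40 cells, while Ms4a1, a B cell surface protein gene, had 0 reads in all Il25-positive cells. The microfold-like list was met in 79.7% of the Il25-positive and 62.8% of the Il25-zero cells, and its summed level ran from 1708 to 2914 CPM across the sets in the former and from 711 to 1467 CPM in the latter. Anxa5 and Marcksl1, which are expressed widely, were found in 90.2% and 73.2% of the Il25-positive cells. Gp2, which marks microfold cells, was found in 27.5% of them and in 24.03% of the Il25-zero cells.

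Several measures of the libraries moved with the class. The median share of mitochondrial reads in Il25-positive against Il25-zero cells was 3.71% against 13.7% in June5, 5.15% against 11.1% in June29, 3.72% against 4.42% in WT batch 2 and 3.25% against 3.90% in Aire-/-. It was lower in the Il25-positive cells of every set, with a wide gap in the June sets and a narrow one in the others. Gene reads per ERCC read, a measure of RNA content, had medians of 2.88 against 0.913, 3.27 against 1.955, 1.95 against 1.29 and 2.51 against 1.84 in the same order. The median number of gene reads was 1.73, 1.26, 1.25 and 1.10 times that of the Il25-zero cells. Il25-positive cells thus had more gene reads per spike-in read and somewhat deeper libraries, and the part of this in the gene differences below was not tested.

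Cells were also thinned to 231697 gene reads, which left out the 30 shallower cells. These included 1 of the 16 Il25-positive and 4 of the 11 Il25-zero cells of June5, 0 and 2 cells of June29, 2 and 8 of WT batch 2, and 4 and 6 of Aire-/-. Among the thinned cells, the median number of genes detected was 4867 against 3168 in June5, 4192 against 3360 in June29, 3592.5 against 3833 in WT batch 2 and 4072 against 4077 in Aire-/-. Il25-positive cells thus had more genes in the June sets and not in the others. Cells with at most 10% mitochondrial reads made up 12 of the 16 Il25-positive and 3 of the 11 Il25-zero cells of June5, 21 of 33 and 19 of 44 of June29, 40 of 44 and 37 of 43 of WT batch 2, and 60 of 60 and 28 of 31 of Aire-/-. In June5 the cells with 5 or more Y-linked reads and fewer than 5 Xist reads numbered 10 of the 16 Il25-positive and 2 of the 11 Il25-zero cells. In WT batch 2 they numbered 15 of 44 and 15 of 43. In June29 they numbered 27 of 33 and 31 of 44, and 0 cells of either class had Xist alone. In Aire-/- they numbered 0 of 60 and 0 of 31, and 53 and 28 cells had Xist alone.

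Reads were then summed over the cells of each class in each set, which gave 8 sums, and the classes were compared across the 4 sets with the set as a block (edgeR's quasi-likelihood test, Benjamini-Hochberg adjustment over 14769 genes, Il25 left out since it chose the cells). The p-values measure the spread between these sets. At an adjusted p under 0.05, 0 genes (0%) were higher and 0 (0%) lower in Il25-positive cells. At an unadjusted p under 0.05, 304 genes (2.06%) were higher and 196 (1.33%) lower. The summed CPM was higher in all 4 sets for 1484 genes (10.0%) and lower in all 4 for 821 (5.56%). DESeq2 on the same sums and with the same block called 0.691% of the genes higher and 0.718% lower. The median log2 fold over all genes was 0.14 (edgeR), and 0.06 with DESeq2's size factors and 0.19 with library totals, so each fold below stands against a shift of that size.

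Genes of tuft cells stood slightly above that shift. The 30 tuft genes summed to 55690 CPM in the Il25-positive and 35403 CPM in the Il25-zero cells of June5, 43539 and 32023 in June29, 41385 and 35207 in WT batch 2, and 48286 and 38874 in Aire-/-. The sums of the Il25-positive cells were higher in each set, and the lowest of them, in WT batch 2, was above the highest of the Il25-zero cells, in Aire-/-. The list was written for thymic tuft cells with results of these data known, and it is no independent evidence of a direction. Of its 30 genes, 15 were higher in all 4 sets and 1 was lower in all 4, against 10.0% and 5.56% of all genes. None passed the adjusted threshold, 9 were higher at an unadjusted p under 0.05 against 2.06% of all genes, and the median log2 fold was 0.32 against 0.14 for all genes. The mitochondrial share and RNA content given above moved with these sums, and among cells with at most 10% mitochondrial reads the list median was 0.44 against 0.37 for all genes.

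**Figure D2:**
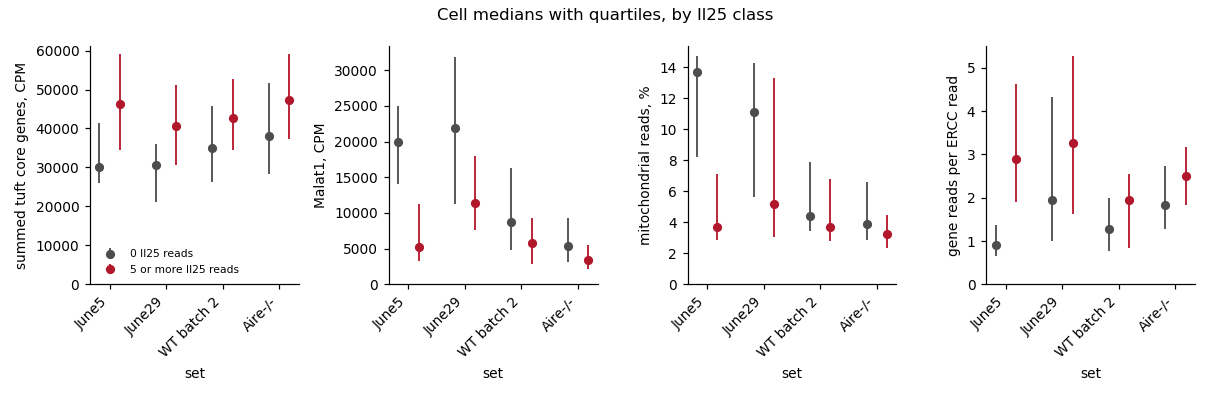
Medians over cells with quartiles, for cells with 0 Il25 reads (grey) and 5 or more (red) in each set, of the summed CPM of 30 tuft genes, Malat1 in CPM, the percentage of mitochondrial reads and the gene reads per ERCC read. Tuft gene levels and RNA content are higher and Malat1 and mitochondrial shares lower in the Il25-positive cells of all 4 sets, with quartile ranges that mostly overlap.

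Avil, which encodes the actin-binding protein advillin of the tuft cell brush, was singled out after its values were seen. Its sums were 4947 against 2232 CPM in June5, 4380 against 2647 in June29, 3166 against 2554 in WT batch 2 and 4658 against 3388 in Aire-/-. All 4 differences had the same sign, and the classes overlapped, since the Il25-zero cells of Aire-/- were above the Il25-positive cells of WT batch 2. The log2 fold was 0.59 (SE 0.14; edgeR, unadjusted p = 0.00611, adjusted p = 0.991). Krt8, a keratin of simple epithelium, and Lrmp, a membrane protein of the endoplasmic reticulum, had log2 folds of 0.36 and 0.63, and Cd24a, a surface glycoprotein, 0.85. All were higher in 4 of 4 sets. Dclk1, Pou2f3 and Trpm5, in contrast, had log2 folds of -0.16, 0.02 and 0.18 and were higher in 2, 2 and 3 of the 4 sets. Fyb, an adaptor of immune receptor signalling, was the gene of the list that was lower in all 4 sets (log2 fold -0.31, SE 0.14).

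Enzymes of lipid mediator synthesis were among the tuft genes with higher levels. Alox5, the 5-lipoxygenase that starts leukotriene synthesis, summed to 2669 against 902 CPM in June5, 1310 against 835 in June29, 1596 against 948 in WT batch 2 and 2663 against 1948 in Aire-/-. Every set had the higher level in Il25-positive cells (log2 fold 0.78, SE 0.19; edgeR, unadjusted p = 0.00665, adjusted p = 0.991). Alox5ap, which presents arachidonic acid to Alox5, had a log2 fold of 0.55, and Ptgs1, the cyclooxygenase at the start of prostaglandin synthesis, 0.69, each with the same sign in 4 of 4 sets. Ltc4s and Mgst3, of leukotriene C4 synthesis and the same protein family, were higher in all 4 sets with log2 folds of 0.33 and 0.36. Hpgds, which makes prostaglandin D2, had a log2 fold of 0.10 and a lower level in June5 only. Of 14 genes tested in this list, 6 were higher in all 4 sets and 0 were lower in all 4, against 10.0% and 5.56% of all genes, and 3 were higher at an unadjusted p under 0.05, against 2.06% of all genes. The list median was 0.34, and 5 of its genes are also in the tuft list. Those 5 include the 3 with an unadjusted p under 0.05, Alox5, Alox5ap and Ptgs1, so the 2 lists are not separate results.

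The remaining parts of the tuft cell's sensing and signalling machinery were taken list by list, and no difference between lists was tested. Of 18 genes of taste transduction, 2 were higher in all 4 sets and 0 were lower in all 4, against 10.0% and 5.56% of all genes, so the higher count was near that of all genes. The median log2 fold was 0.05 and ran from -0.07 without June29 to 0.19 without WT batch 2. The first was Calhm3, a subunit of the channel that releases ATP in taste cells, at 484 against 164.4 CPM in June5, 365 against 198 in June29, 255 against 159.2 in WT batch 2 and 464 against 406 in Aire-/- (log2 fold 0.76). The other was Gng13, a G protein gamma subunit, with a log2 fold of 0.04. Gnat3, the G protein alpha subunit gustducin, had 0.32 and Plcb2, the phospholipase of the cascade, 0.07, and each was lower in WT batch 2.

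Bitter taste receptors of the Tas2r family followed no common direction. Of 29 tested, 0 were higher and 1 was lower in all 4 sets, against 10.0% and 5.56% of all genes. The median log2 fold was 0.65, and it was 0.12 without June5 and -0.25 without Aire-/-. Their summed level was 1769 against 1037 CPM in June5, 1808 against 1742 in June29, 1076 against 2207 in WT batch 2 and 1232 against 811 in Aire-/-, so it was higher in 3 sets and lower in WT batch 2. The receptor lower in all 4 sets, Tas2r125, was found in 3.27% of the Il25-positive cells.

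Chat, which makes acetylcholine, was found in 76.5% of the Il25-positive and 60.5% of the Il25-zero cells. Its sums were 253 against 187.8 CPM, 309 against 281, 362 against 300.0 and 455 against 388 in June5, June29, WT batch 2 and Aire-/- (log2 fold 0.20, SE 0.17). The 4 differences were small and of the same sign. Of 8 genes tested for acetylcholine and its receptors, 2 were higher in all 4 sets, against 10.0% of all genes. Their median log2 fold was 0.68, and it was 0.17 without June29 and 0.36 without WT batch 2. Of 4 metabolite and lipid receptors tested, 1 was higher in all 4 sets, and the median was 1.08 and 1.65 without Aire-/-.

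Among transcription factors, 2 of 13 were higher in all 4 sets and 1 was lower in all 4, counts near the 10.0% and 5.56% of all genes. Spib, an Ets factor shared with lymphoid cells, summed to 1170 against 461 CPM, 481 against 384, 693 against 449 and 666 against 549 in the same order (log2 fold 0.57). Sox9, a factor of epithelial progenitors, had a log2 fold of 0.43. Myb was lower in all 4 sets (log2 fold -1.25). The median of the 13 was -0.11, and it was 0.37 without June5 and 0.04 without the Aire-/- set, so its sign depended on single sets.

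Genes of the cytokine system of Il25 itself were described next. No other ligand of the IL-17 family passed the filter on low counts. Il17rb, the IL-25 binding receptor chain, was found in 74.5% of the Il25-positive and 65.1% of the Il25-zero cells. Its sums were 342 against 537 CPM in June5, 276 against 362 in June29, 268 against 216 in WT batch 2 and 179.01 against 343 in Aire-/- (log2 fold -0.49, SE 0.27). It was lower in 3 of 4 sets in summed level although found in more cells. Il17ra, the shared chain, was found in 11.8% and 6.98% of cells. Il13ra1 and Il4ra, the chains of the receptor for IL-4 and IL-13, were higher in 4 of 4 sets, with log2 folds of 0.68 (SE 0.26) and 0.42 (SE 0.20). Il13ra1 summed to 259 against 160 CPM in June5, 172.7 against 129.1 in June29, 339 against 237 in WT batch 2 and 265 against 101.6 in Aire-/-. Stat6, the transcription factor that acts after this receptor, was lower in summed level in 4 of 4 (log2 fold -0.39, SE 0.25). By cells, Stat6 was found in 47.7% of the Il25-positive and 44.2% of the Il25-zero cells. Il4, Il5, Il9, Il13 and Il33 were found in at most 1.31% of the Il25-positive cells, and Tslp, another epithelial alarmin, in 7.84%.

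Of 12 other cytokine and chemokine genes tested, 0 were higher and 1 was lower in all 4 sets, against 10.0% and 5.56% of all genes. Il10 was found in 60.8% of the Il25-positive and 43.4% of the Il25-zero cells. Its sums were 202 against 61.5 CPM in June5, 253 against 242 in June29, 279 against 194 in WT batch 2 and 267 against 293 in Aire-/- (log2 fold 0.46). The sign was not the same in all sets. Of 20 regulators of receptor signalling through Stat6 and ERK, 1 was higher and 2 were lower in all 4 sets, near the shares of all genes, and the median was 0.00. The gene higher in all 4 was Socs3, a feedback inhibitor of cytokine receptors (log2 fold 0.99, SE 0.41).

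Antigen presentation genes are given by pathway. Of 12 genes of MHC class I presentation, 5 were higher and 0 lower in all 4 sets, against 10.0% and 5.56% of all genes. At an unadjusted p under 0.05, 4 were higher, against 2.06% of all genes, and the median log2 fold was 0.32 against 0.14 for all genes. Among cells with at most 10% mitochondrial reads the list median was 0.34 against 0.37 for all genes, so it was not above the shift of all genes there. H2-D1, a class I heavy chain, summed to 8624 against 4893 CPM in June5, 5550 against 3643 in June29, 8004 against 6811 in WT batch 2 and 10826 against 8487 in Aire-/- (log2 fold 0.43, SE 0.11). Every set had the higher level in Il25-positive cells, and the classes overlapped between sets. H2-K1 had a log2 fold of 0.38, B2m, the light chain, 0.29, and Tapbp, of the peptide loading complex, 0.71. H2-D1 and H2-K1 are close relatives, and the counting could split reads between them. The 11 class II genes, whose surface protein the sort kept low, included 1 that was higher in all 4 sets and had a median of -0.39, which was 0.20 without June29 and -0.18 without WT batch 2. Their summed level was 1435 against 542 CPM in June5, 1444 against 4256 in June29, 1345 against 2419 in WT batch 2 and 4131 against 2857 in Aire-/-, with opposite signs in the sets.

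Interferon and stress lists had medians below 0. Of 9 interferon-stimulated genes, 0 were higher and 2 lower in all 4 sets, against 10.0% and 5.56% of all genes (median -0.50), and Isg15, a ubiquitin-like modifier, had a log2 fold of -1.67. Of 15 genes that respond to cell dissociation, 0 were higher and 3 lower in all 4 sets, and the median of -0.14 was 0.00 without June29 and -0.38 without Aire-/-. Genes of Aire-expressing medullary cells had a median of -1.57 over 5 tested, and it was -0.50 without WT batch 2, -0.91 without June29 and -2.39 without Aire-/-. The set medians of the log2 ratio of summed CPM + 1 were 0, -1.42, -3.23 and -0.02 in June5, June29, WT batch 2 and Aire-/-. Hdc, histidine decarboxylase, led this list with a log2 fold of -4.91, and it was found in 2.61% of the Il25-positive and 6.20% of the Il25-zero cells. Of the 5 neuroendocrine genes tested, 1 was higher in all 4 sets, against 10.0% of all genes. The list median was 3.04 at low levels, with sums of 22.1 to 202 CPM in Il25-positive and 4.38 to 83.6 CPM in Il25-zero cells. These sums were higher in the Il25-positive cells of 4 of 4 sets. Few cells, 10 and 1, met the rule of 2 genes for this list. The gene higher in all 4 sets was Scg5, a chaperone of prohormone convertase, found in 20.3% and 8.53% of cells (log2 fold 2.33, SE 0.60).

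**Figure D3:**
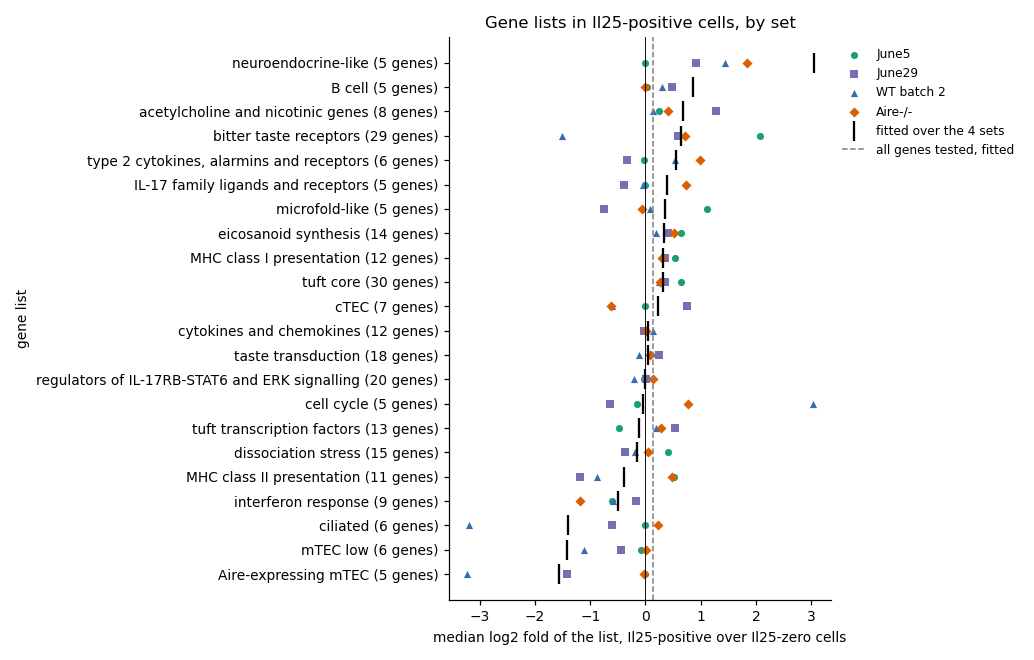
Median log2 fold, Il25-positive over Il25-zero cells, of each gene list with at least 5 genes tested, as points for each set from summed CPM + 1 and as a bar for the edgeR fit over the 4 sets, which adds less to low counts and so lies further out for weakly expressed lists. The tuft, eicosanoid and MHC class I lists keep 1 sign in all 4 sets and have fitted medians near 0.3. The acetylcholine list (0.68) and the interferon list (-0.50) also keep 1 sign, and lists of weakly expressed genes spread widely.

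As no gene was called, the genes with the lowest p and the same sign in all 4 sets were taken in each direction, 10 and 10. The higher genes included Rgs2, an inhibitor of Gq signalling, with sums of 1464 against 621 CPM in June5, 1050 against 541 in June29, 1401 against 710 in WT batch 2 and 963 against 701 in Aire-/-. Its log2 fold was 0.84 (SE 0.16), and it was found in 89.5% of the Il25-positive and 76.7% of the Il25-zero cells. Sec23b, a coat protein of vesicles leaving the endoplasmic reticulum, summed to 262 against 105.7, 183.7 against 77.6, 212 against 116.8 and 229 against 77.4 CPM. Its log2 fold was 1.17 (SE 0.23), the lowest Il25-positive sum was above the highest Il25-zero sum, and it was found in 53.6% and 31.8% of cells.

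Agt, which encodes angiotensinogen, Srpx2, a secreted sushi-repeat protein, and Bub3, a spindle checkpoint protein, had log2 folds of 0.83, 1.04 and 0.93. Bub3 was found in 72.5% of the Il25-positive and 44.96% of the Il25-zero cells. At 1 or more reads among the thinned cells, a lower threshold that cannot be set against those shares, it was found in 78.1% and 61.5%. Agt was found in 75.2% and 55.04%. Tgfb3, a TGF-beta ligand, summed to 125.4 against 16.9 CPM in June5, 84.6 against 28.7 in June29, 35 against 7.84 in WT batch 2 and 94.9 against 10.9 in Aire-/-. Its log2 fold was 2.36 (SE 0.46), and it was found in 20.3% and 8.53% of cells, so most cells of either class lacked it.

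The last 3 of the higher genes rested on few cells. Chaf1b, a subunit of chromatin assembly factor 1, had 3045 reads in the Il25-positive cells, in 11 cells at 5 or more reads, against 1 read in all Il25-zero cells. The ratio of the summed levels was 2134 with a counting interval of 383 to 84331. Counting intervals of such ratios treat reads as independent and leave out the spread between cells and between sets. Slc19a3, a thiamine transporter, had 2461 reads in 5 cells against 2 reads (ratio 863, counting interval 239 to 7126), and 56.5% of those reads came from 1 cell, without which it no longer passed the filter. Otos, first described in the inner ear, had 3867 reads against 63, and 85.9% of them came from 1 cell of WT batch 2. Without that cell its unadjusted p was 0.266 (edgeR).

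Malat1, a long RNA that stays in the nucleus, was among the 10 genes lower in Il25-positive cells. It summed to 5637 against 14838 CPM in June5, 11835 against 20824 in June29, 5682 against 7946 in WT batch 2 and 3837 against 6730 in Aire-/-. Every set had the lower level in Il25-positive cells (log2 fold -0.95, SE 0.20; edgeR, unadjusted p = 0.00412, adjusted p = 0.991). The cell medians were 0.261, 0.525, 0.663 and 0.622 times those of the Il25-zero cells. Kcnq1ot1, another nuclear long RNA, had a log2 fold of -0.97 and Kmt2a, a histone methyltransferase, -0.98. Kcnq1ot1 lies antisense to Kcnq1, and without strand the reads of the pair cannot be told apart. Malat1 moved with the mitochondrial share and the RNA content given above, and their part in its level was not tested. Its log2 fold was -0.68 among cells with at most 10% mitochondrial reads. The median over all genes was 0.37 among those cells and 0.14 in the main comparison.

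Ppp1r12a, the targeting subunit of myosin phosphatase, had the lowest p of the lower genes. Its sums were 41.7 against 140.6 CPM in June5, 32.7 against 103.5 in June29, 20.45 against 85.4 in WT batch 2 and 21.1 against 56.3 in Aire-/-. Each Il25-positive sum was below all Il25-zero sums, and the log2 fold was -1.79 (SE 0.33; edgeR, unadjusted p = 0.00201, adjusted p = 0.991). It was found in 37.3% of the Il25-positive and 44.2% of the Il25-zero cells. Gm19817 was found in 27.5% and 47.3% of cells, with a log2 fold of -1.75.

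The other lower genes depended on few cells or on the set. Dock10, a guanine nucleotide exchange factor, was found in 100% and 96.97% of the Il25-positive cells of June5 and June29 but in 2.27% and 5.00% of those of WT batch 2 and Aire-/-, so its detection differed between the June sets and the sets of batch 2. Within sets its level was lower in Il25-positive cells in all 4 (log2 fold -3.21). Col27a1, a fibrillar collagen chain, was found in 6.54% and 17.8% of cells, and A530041M06Rik in 5.23% and 8.53%. Tmem71 had 8 reads in the Il25-positive and 1276 in the Il25-zero cells, of which 45.9% came from 1 cell, without which it no longer passed the filter. Fabp5, a fatty acid binding protein, had 68.3% of its Il25-zero reads in 1 cell, and without it the unadjusted p was 0.133 (edgeR).

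**Figure D4:**
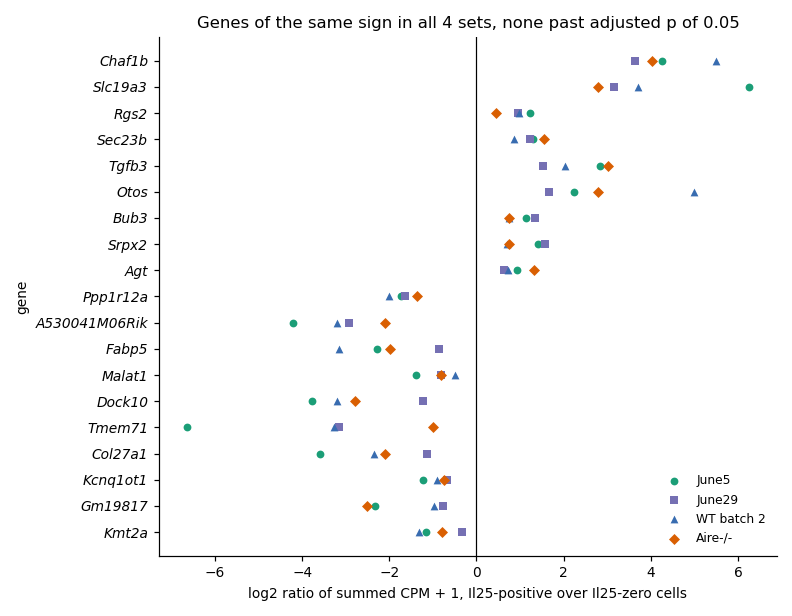
Log2 ratio of summed CPM + 1 in Il25-positive over Il25-zero cells, in each of the 4 sets, for the named higher and lower genes with a low p and the same sign in every set. Rgs2, Bub3 and Malat1 lie close together across sets, and Slc19a3, Otos and Tmem71, which rest on few cells, spread widely.

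Genes that neighbour Il25 were examined within 100 kb, a window chosen after their values were seen. Il25 lies on chromosome 14 of GRCm38 at chr14:54932695-54935837 on the plus strand (GENCODE M21). Cmtm5, a protein of the CKLF-like MARVEL family, begins 423 bases after its end, at chr14:54936261-54939274 on the same strand, and the 2 gene models do not overlap. Cmtm5 was found at 5 or more reads in 35.3% of the Il25-positive cells (54 cells, interval 27.8 to 43.4%) and in 9.30% of the Il25-zero cells (12 cells, 4.90 to 15.7%). By set, the shares were 37.5% against 18.2% in June5, 33.3% against 13.6% in June29, 38.6% against 9.30% in WT batch 2 and 33.3% against 0% in Aire-/-. Il25-positive cells had the higher share in each set, and at 1 or more reads among the cells thinned to 231697 gene reads, which leaves out the shallower cells counted above, the shares were 36.99% and 10.1%. As each set is 1 pool, these shares were not tested. Of the 19 cells with 1 to 4 Il25 reads, 6 had Cmtm5 (31.6%, interval 12.6 to 56.5%).

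In summed level Cmtm5 stood at 27.5 against 6.24 CPM in June5, 38.9 against 44.5 in June29, 35.3 against 5.32 in WT batch 2 and 42.5 against 0.0476 in Aire-/-. The exception in June29 came from 1 Il25-zero cell with 1710 reads, which held 70.1% of all Cmtm5 reads of that class. The edgeR test did not pass (log2 fold 2.64, SE 1.70, unadjusted p = 0.176, adjusted p = 0.991). The difference in share, 25.99 percentage points, was exceeded by 41 of the 14769 genes, of which Gm7803 had the largest at 36.4 points, and the median gene had 2.52 points. Among Il25-positive cells, the median Il25 level was 101.7 CPM in the 54 cells with Cmtm5 and 88.1 CPM in the 94 with 0 Cmtm5 reads, with opposite orders in different sets.

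Efs, an adaptor of Src family kinases that lies 6568 bases before Il25 on the minus strand (chr14:54916535-54926126), was found in 24.2% of the Il25-positive and 15.5% of the Il25-zero cells. Its sums were 92.3 against 1.35 CPM in June5, 13.1 against 7.83 in June29, 34.8 against 24.8 in WT batch 2 and 74.2 against 36.3 in Aire-/-. All 4 had the same sign, and the test did not pass (log2 fold 1.62, SE 1.07). Pabpn1, further before Il25, was found in fewer Il25-positive than Il25-zero cells, 13.7% against 24.03%. Ngdn, 79616 bases after Il25, was found in 37.9% of the Il25-positive and 26.4% of the Il25-zero cells, a wider gap than that of Efs. Its summed level was higher in 2 sets and lower in 2 (log2 fold -0.09, SE 0.46). The gap in share thus did not simply follow the distance from Il25. Myh6 and Myh7, heart myosin genes after Cmtm5, were found in at most 0.775% of the cells of either class.

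**Figure D5:**
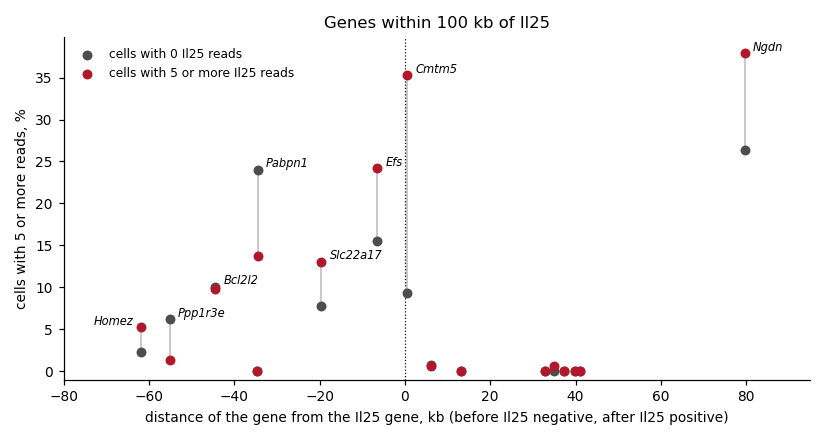
Share of cells with 5 or more reads of each gene within 100 kb of Il25, in Il25-positive (red) and Il25-zero cells (grey), against the distance from Il25 in kb. Cmtm5, next to Il25, stands at 35.3% against 9.30%, and the other genes differ by fewer points.

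The class difference was then compared between genotypes. With the class by genotype term, 0 genes passed an adjusted p under 0.05 and 201 had an unadjusted p under 0.05 (1.36%, edgeR), with the single Aire-/- set assumed to vary like the wild-type sets. DESeq2 called 97 genes for the same term. The summed level of the tuft genes in Il25-positive cells was 48286 CPM in Aire-/-, within the range of the wild-type sets (41385 to 55690). Genotype and pool cannot be told apart for the Aire-/- set. It shared its batch, and the batch numbers 1 and 2 of the deposited table of labels, with WT batch 2. In the Aire-/- set 0 cells of either class had Y-linked reads alone, unlike the wild-type sets, and the part of sex was not tested.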

How the data were processed

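The authors deposited raw read counts per gene, as 1 table for each genotype. STAR, Subread, featureCounts 1.5.3, R 3.4.0 and GRCm38 are listed in the submitters' processing notes, while the annotation and other settings were not given in the sources used here. A deposited table of scores per gene and well, whose making is not stated, served only as a list of wells. A deposited table of other labels gave the batch numbers. Each table held 48887 entries, of which 48441 had a symbol in GENCODE M21 or were 1 of 92 ERCC spike-ins.

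Wells with 1 cell were kept with 10000 or more gene reads, 1000 or more genes and at most 20% mitochondrial reads, and no doublet caller was run. Counts were summed per set and Il25 class and tested with edgeR 4.0.16 (TMM, filterByExpr, set as a block, quasi-likelihood test, 3 residual degrees of freedom). DESeq2 1.42.0 and limma 3.58.1 served as alternatives, in R 4.3.3, and tables were made in Python 3.11.15. Scripts were tested on simulated data. Levels (CPM) are counts for every 1000000 gene reads of a cell or sum, and a gene was found in a cell at 5 or more reads. Folds per set add 1 CPM. A limit for a count of 0 is 3 reads.

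The members and the 30 gene lists were chosen with earlier results of these data known. Named genes were those past an adjusted p of 0.05, filled to 10 a direction with the lowest p among genes of the same sign in all 4 sets and at 20 CPM or more in the higher class, and listed genes by their level or call. Other listed genes, Avil, Cmtm5 and its neighbours were named after their values were seen. The class of a cell and its set pair the sums, since both classes of a set come from the same pool and batch numbers. A gene that the rule named is not reported here.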

Additional observations from a re-analysis of the deposited data

Results flagged for a closer look

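For 2 lists the median log2 ratio of summed CPM + 1, Il25-positive over Il25-zero cells, had another sign in the Aire-/- set than in the 3 wild-type sets. The list of mTEC low genes, 6 of 8 tested, had a median of 0.014 in Aire-/- against -0.07, -0.44 and -1.12 in June5, June29 and WT batch 2. The B cell list, 5 of 8 tested, had a median of -0.0011 in Aire-/- against 0.04, 0.47 and 0.31. Both Aire-/- values lie next to 0, and the difference between genotypes was not tested for either list.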

How the results depend on the processing

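No count of called genes left 0 under the edgeR and limma alternatives, which included library totals, no filter on low counts, 10 or more Il25 reads, all other cells as the comparison, thinned cells, the wells of the score table, cells without haematopoietic markers and, chosen after seeing the data, cells with at most 10% mitochondrial reads. The set served as the replicate block, and with no replicate block 0 genes were called in either direction, 0 and 0. Leaving out each set in turn also gave 0 genes in each direction. DESeq2 called 0.691% of the genes tested higher and 0.718% lower, and 97 genes for the genotype term, and the cause was not tested. Of 345 values of single genes under an alternative, 332 kept their direction and side of the threshold, 13 passed it under DESeq2, and 0 reversed. These genes were chosen for the same sign in all 4 sets and a low p, or after their values were seen. Their kept directions are therefore no independent support. The June29 share of Il25-positive cells was 49.4% with 1 or more reads in place of 5. The tuft list median was 0.76 with limma on mean log2(CPM + 1) per cell, which weights cells equally, and 0.26 to 0.35 without 1 set each. The share difference of Cmtm5 ran from 24.6 to 27.7 points over 5 alternatives chosen after seeing the data. Depth and the lack of molecular identifiers limit the reading of 0 Il25 reads, and 4 pools with no named animals limit every test.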
